A study of Mus musculus with 6 samples.

Results

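The mRNAs of phospholipase A2 and eicosanoid enzymes were followed in Ba/F3, a haematopoietic line from the mouse that depends on interleukin-3. The 9 genes were chosen by name, with earlier results of these data known. They are Pla2g4c, Pla2g4a, Alox5, Alox5ap, Alox15, Ltc4s, Ptgs1, Ptgs2 and Hpgds. The platform annotation used here gave them 10 of 45037 probe sets, 2 each for Pla2g4c and Ptgs2 and none for Ptgs1, which was therefore not analysed here. All groups carried the PAX5-KIDINS220 fusion on a doxycycline-switched retroviral Tet-on system, in cells of BALB/c background grown with WEHI-3 supernatant. The Dox(+) group received 500 ng/mL doxycycline for 24 h (3 arrays), which turns the fusion on, and the Dox(-) group received none (3 arrays). The design text asks which pathways respond to the fusion. No Dox-treated cells without the fusion were among the arrays, so an effect of doxycycline itself and one of the fusion cannot be told apart.

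The titles carry array codes that start with EA20 on 4 arrays (2 Dox(+), 2 Dox(-)) and with EA15 on 2 arrays (1 Dox(+), 1 Dox(-)). The labels do not say what the codes stand for. Among the EA20 arrays the Dox(+) codes come before the Dox(-) codes, so treatment and code order cannot be told apart among them. Nor do the labels say whether the arrays of a group came from separate cultures, so the spread between them may be technical. Signals are linear intensities, and every array had a trimmed mean of 500, with a median probe set between 56.3 and 65.6. A probe set is called dim here when its mean over the 6 arrays is below 36.3, the 40th percentile, and 5 of the 10 probe sets were dim. Signals of different probe sets cannot be compared with each other. Of the markers checked for the labelled cells, Csf2rb and Csf2rb2, of the interleukin-3 receptor, and Ptprc (CD45) read between 4906 and 22450 in all 6 arrays. Their signals were 4906 to 9119 in EA15 and 15840 to 22450 in EA20 arrays. Il3ra, also of that receptor, read 296.5 to 317.4 in EA15 and 719.3 to 897.6 in EA20 arrays. The B-lineage genes Cd79a and Ebf1 were dim, at 3.83 to 45.6, and Cd79b read 467 to 777.

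Phospholipases A2 cut a fatty acid, often arachidonic acid, out of membrane phospholipids. Arachidonic acid is then oxidised along separate branches. The lipoxygenase encoded by Alox5, helped by its activating protein (Alox5ap), begins the leukotriene branch, in which the product of Ltc4s adds glutathione to make cysteinyl leukotrienes, while that of Alox15 makes other hydroxy acids. The cyclooxygenases encoded by Ptgs1 and Ptgs2 begin the prostanoid branch, in which the haematopoietic synthase encoded by Hpgds makes prostaglandin D. Mast cells, eosinophils and macrophages are known producers of these lipids.

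The 9 genes were named with the doxycycline contrast of these arrays in view. Their Dox(+) against Dox(-) values are therefore given as a description, without a test, as arithmetic on log2(signal + 16). Over all probe sets, limma with the array code group as a block called 39 of 45037 at a Benjamini-Hochberg adjusted p under 0.05, or 0.0866% (0.0577% higher and 0.0289% lower with doxycycline), and 0 without the block. At an unadjusted p under 0.05 the blocked fit held 9.44%.

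Pla2g4c, which encodes the calcium-independent gamma form of cytosolic phospholipase A2, lay higher with doxycycline at both of its probe sets. Probe set 1436712_at read 309 (EA15), 556 and 394 (EA20) in Dox(+) arrays, against 95.5 (EA15), 73.3 and 81.1 (EA20) in Dox(-) arrays. The lowest Dox(+) array was above the highest Dox(-) array. The means were 420 ± 126 in Dox(+) and 83.3 ± 11.3 in Dox(-) arrays (SD, n = 3 each), and the fold on the log2(signal + 16) scale was 5.20 among the EA20 arrays and 2.91 between the EA15 arrays. Probe set 1444662_at read 144 (EA15), 206 and 183 (EA20) in Dox(+) arrays, against 77.6 (EA15), 92.8 and 93.3 (EA20) in Dox(-) arrays. Here too the groups did not overlap, but the folds were smaller, 1.93 among the EA20 arrays and 1.71 between the EA15 arrays. The Dox(-) signals of both probe sets were 73.3 to 95.5, above the array medians of 56.3 to 65.6, and the Dox(+) arrays spread more widely than the Dox(-) arrays. Fewer cells with the mRNA and less mRNA per cell cannot be told apart in such bulk RNA, and the same holds for more.

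Pla2g4a encodes the alpha form, the calcium-regulated enzyme that releases arachidonic acid in most cells. Its probe set 1448558_a_at read 5362 (EA15), 3094 and 2346 (EA20) in Dox(+) arrays, against 3906 (EA15), 2052 and 2062 (EA20) in Dox(-) arrays. Over all arrays the groups overlapped, because both EA15 arrays were above all 4 EA20 arrays. Within each array group every Dox(+) array was above every Dox(-) array, by 1.31-fold in EA20 and 1.37-fold in EA15. The 2 Dox(+) EA20 arrays differed from each other by more than the lower one differed from the Dox(-) arrays.

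**Figure D1:**
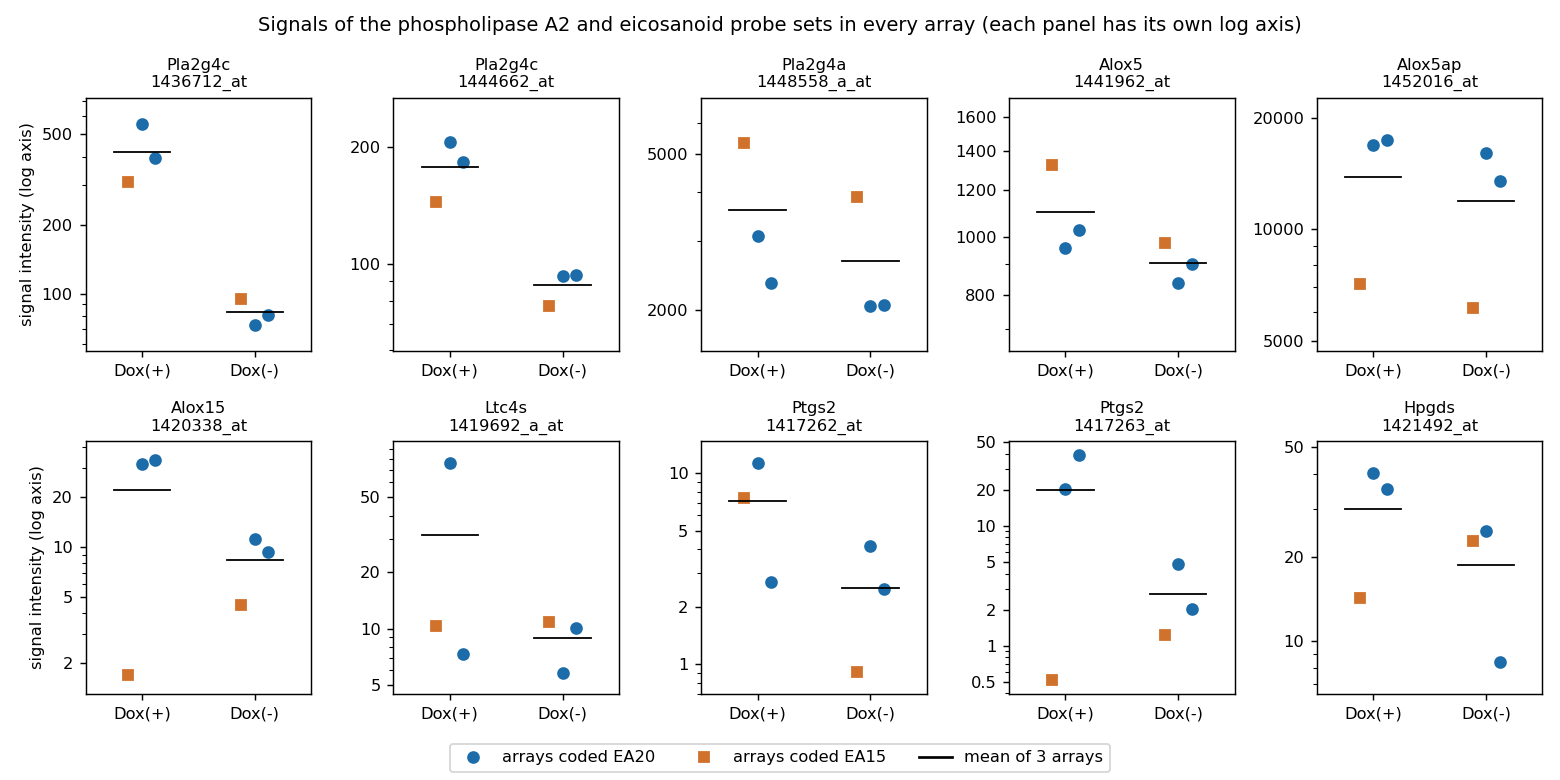
Signal intensity of each of the 10 probe sets in every array, Dox(+) left and Dox(-) right, on a log axis that differs between panels. Circles are EA20 arrays, squares EA15 arrays and lines the mean of 3 arrays. The 2 Pla2g4c probe sets have no overlap between groups; Pla2g4a, Alox5 and Alox5ap overlap because EA15 and EA20 arrays differ.

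The promoters of the genes just described, with that of Alox5, whose Dox(+) arrays also lay above within each array group, and of Ptgs2, which stayed dim, are printed from RefSeq (GRCm38.p6), from 250 bases before to 50 after a listed transcript start. RefSeq places Pla2g4c at chr7:13311507-13360674, with both listed starts inside that span. Pla2g4a (chr1:149829618-149961290) and Ptgs2 (chr1:150100031-150108234) are neighbours, 138740 bases apart. Capitals mark matches on either strand to 8 motifs.
Pla2g4c, first start, chr7:13325417-13325716, plus strand: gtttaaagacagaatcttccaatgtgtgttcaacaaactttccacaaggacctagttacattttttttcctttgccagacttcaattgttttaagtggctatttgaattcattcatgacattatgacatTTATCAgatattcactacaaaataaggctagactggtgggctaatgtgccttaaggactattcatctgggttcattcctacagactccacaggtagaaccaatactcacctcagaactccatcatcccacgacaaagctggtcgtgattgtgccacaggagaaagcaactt
Pla2g4c, second start, chr7:13329072-13329371, plus strand: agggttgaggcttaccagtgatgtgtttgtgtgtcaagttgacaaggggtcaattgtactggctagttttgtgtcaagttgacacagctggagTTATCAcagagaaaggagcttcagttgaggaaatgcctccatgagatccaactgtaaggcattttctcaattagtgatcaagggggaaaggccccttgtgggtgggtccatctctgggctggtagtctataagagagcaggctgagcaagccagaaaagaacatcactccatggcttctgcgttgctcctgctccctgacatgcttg
Pla2g4a, first listed start, chr1:149961241-149961540, minus strand: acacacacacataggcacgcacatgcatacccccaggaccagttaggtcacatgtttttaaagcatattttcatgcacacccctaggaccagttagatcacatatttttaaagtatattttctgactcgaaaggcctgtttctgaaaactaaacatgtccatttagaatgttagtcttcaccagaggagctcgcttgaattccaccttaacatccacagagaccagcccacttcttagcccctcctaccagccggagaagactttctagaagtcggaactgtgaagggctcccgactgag
Alox5, chr6:116461129-116461428, minus strand: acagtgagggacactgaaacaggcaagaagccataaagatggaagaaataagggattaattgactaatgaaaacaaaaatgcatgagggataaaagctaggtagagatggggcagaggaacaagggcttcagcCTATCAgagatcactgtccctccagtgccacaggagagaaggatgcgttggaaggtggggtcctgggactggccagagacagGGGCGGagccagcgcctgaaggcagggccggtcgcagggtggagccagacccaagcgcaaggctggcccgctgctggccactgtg
Ptgs2, chr1:150099781-150100080, plus strand: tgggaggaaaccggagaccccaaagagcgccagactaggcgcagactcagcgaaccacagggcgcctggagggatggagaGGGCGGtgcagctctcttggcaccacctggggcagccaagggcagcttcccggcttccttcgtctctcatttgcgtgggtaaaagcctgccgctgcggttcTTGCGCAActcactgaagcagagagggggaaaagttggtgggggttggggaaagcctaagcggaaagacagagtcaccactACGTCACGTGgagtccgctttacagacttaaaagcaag

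The GATA motif was searched as AGATAA, with or without a final G in place of A or an initial T in place of A. A match stood once in each Pla2g4c window and once in the Alox5 window, while the second window listed for Pla2g4a, which is not printed, held 2. That makes 4 of the 9 windows listed for the members, against 29.8% of all 32851 windows of this length. The Alox5 window also held a GC box, searched as GGGCGG, as did 35.7% of all windows. The Ptgs2 window held a GC box too. It also held the C/EBP palindrome TTGCGCAA, found in 0.183% of all windows. Its E-box, searched as CACGTG and found in 7.15% of all windows, overlaps a match to the CRE core, searched as ACGTCA and found in 7.51%. The printed Pla2g4a window held no match. The AP-1 letters TGANTCA were in no member window, against 7.81% of all windows. The PAX5 core was searched as GCGTGAC, which is in no member window and in 2.09% of all windows. The TATA box, searched as TATAAA, was found in 13.6% of all windows and in 1 member window, again the second one listed for Pla2g4a. Alox5ap and Alox15 are not in the promoter table used here. A match is a description of these letters and not a binding site.

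On the leukotriene side, Alox5 and Alox5ap read well above the dim limit in all arrays, and their doxycycline differences were small. Alox5 (1441962_at) read 1323 (EA15), 959 and 1031 (EA20) in Dox(+) arrays, against 977 (EA15), 837 and 903 (EA20) in Dox(-) arrays. That is 1.14-fold in EA20 and 1.35-fold in EA15, and the groups overlapped over all 6 arrays but not within either array group. Alox5ap (1452016_at) read 7141 (EA15), 16900 and 17410 (EA20) in Dox(+) arrays, against 6116 (EA15), 16110 and 13490 (EA20) in Dox(-) arrays. Its folds were 1.16 in EA20 and 1.17 in EA15, and the Dox(-) EA20 arrays differed from each other by more than the higher one differed from the Dox(+) arrays.

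Alox15 and Ltc4s were dim. Alox15 (1420338_at) read 1.71 (EA15), 31.6 and 33.6 (EA20) in Dox(+) arrays, against 4.52 (EA15), 11.2 and 9.35 (EA20) in Dox(-) arrays. Only the EA20 arrays were apart by more than their spread, with a log2 difference of 0.89 there and -0.21 in EA15. Ltc4s (1419692_a_at) read 10.4 (EA15), 76.6 and 7.34 (EA20) in Dox(+) arrays, against 10.8 (EA15), 5.83 and 10.1 (EA20) in Dox(-) arrays. A single Dox(+) array, replicate 2, stood above the other 5, and without it the log2 difference of Ltc4s was -0.029, against 0.63 with it.

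On the prostanoid side every member probe set was dim, and the member Ptgs1 had none. Of the 12 other prostanoid genes measured, described further below, 3 were dim. Ptgs2, the inducible cyclooxygenase, read 0.515 to 39.2 in Dox(+) and 0.908 to 4.81 in Dox(-) arrays over its 2 probe sets. Probe set 1417263_at read 0.515 (EA15), 20.3 and 39.2 (EA20) in Dox(+) arrays, against 1.24 (EA15), 4.81 and 2.03 (EA20) in Dox(-) arrays, so that the array groups went opposite ways (log2 difference 1.21 in EA20, -0.06 in EA15). Probe set 1417262_at read 7.42 (EA15), 11.3 and 2.68 (EA20) in Dox(+) arrays, against 0.908 (EA15), 4.15 and 2.47 (EA20) in Dox(-) arrays, with overlap. Hpgds (1421492_at) read 14.3 (EA15), 40.4 and 35.2 (EA20) in Dox(+) arrays, against 22.9 (EA15), 25.01 and 8.39 (EA20) in Dox(-) arrays, again higher in EA20 (log2 difference 0.76) and not in EA15 (-0.36). At signals this low the pseudocount sets much of the difference: that of 1417263_at was 1.68 with a pseudocount of 1 and 0.307 with 64.

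Counted over the 10 probe sets, 2 had Dox(+) arrays wholly above the Dox(-) arrays, both of Pla2g4c, and 0 had them wholly below. Over all probe sets 3.75% were wholly above and 3.99% wholly below, 7.73% in all. Within each array group, 5 of the 10 had every Dox(+) array above every Dox(-) array, and these are the 5 that were not dim; over all probe sets the share was 10.8%. Among the EA20 arrays alone 8 of the 10 were so ordered and 0 were ordered the other way, against 19.1% and 21.3% of all probe sets. The EA15 and EA20 differences had the same sign in 6 of the 10 and opposite signs in 4, all 4 of them dim. The median log2 difference was 0.47 for the 10 and -0.01 for all probe sets. Since this contrast was known when the genes were named, nothing is read from these shares.

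**Figure D2:**
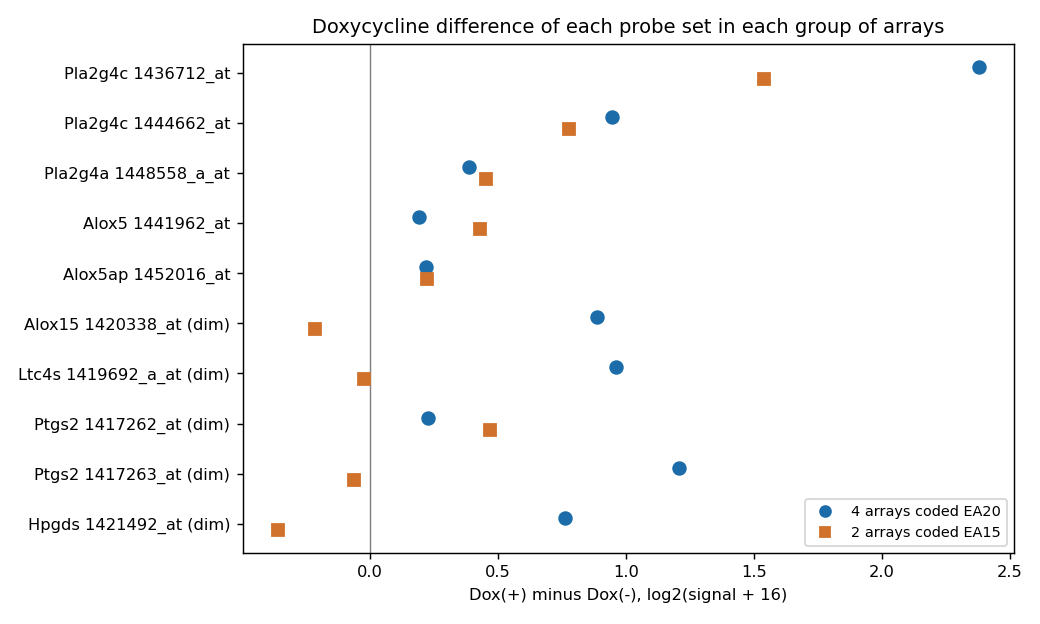
Dox(+) minus Dox(-) in log2(signal + 16) for each probe set, among the 4 EA20 arrays (circles) and between the 2 EA15 arrays (squares). Probe set 1436712_at of Pla2g4c is farthest from 0 in both array groups, at 2.38 and 1.54, while 4 dim probe sets lie on opposite sides of 0.

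The difference between the array groups does not rest on doxycycline, since each array group holds both treatments in equal number, and it was tested in the same limma fit. It passed for 3 of the 10 probe sets, 1 higher and 2 lower in EA20, against 24.8% of all probe sets (13.4% higher and 11.4% lower), so the share is near that of the whole array. Alox5ap averaged 15980 in EA20 arrays and 6629 in EA15 arrays, 2.40-fold (95% interval 2.11 to 2.74, limma adjusted p 5.34e-06), without overlap. Pla2g4a averaged 2389 in EA20 arrays and 4634 in EA15 arrays, a fold of 0.516 (0.441 to 0.604, limma adjusted p 8.06e-05), also without overlap. Alox5 averaged 932 in EA20 arrays and 1150 in EA15 arrays, a fold of 0.82 (0.716 to 0.939, limma adjusted p 0.0377), with overlap. The calls of Alox5ap and Pla2g4a held in every setting in which their probe sets were tested. That of Alox5 was lost without Dox(+) replicate 1, 2 or 3 or Dox(-) replicate 2 (limma adjusted p 0.413, 0.103, 0.0762 and 0.0824) and without the mean-variance trend (0.221). For Pla2g4c the difference between array groups was 0.16 (SE 0.23) and 0.30 (SE 0.22) on the log2 scale at its 2 probe sets and did not pass (limma adjusted p 0.727 and 0.406), and the intervals, up to 1.61-fold and 1.73-fold, do not show that the array groups were alike. The dim probe sets did not pass either, with Alox15 at 0.91 (SE 0.34, limma adjusted p 0.0954) and 1417263_at of Ptgs2 at 0.80 (SE 0.36, limma adjusted p 0.154). Centring each array on its median adds a shift of -0.12 (log2) to every EA20 minus EA15 difference and turns the direction of 1 of the 10, the dim Ptgs2 probe set 1417262_at (0.069 without and -0.051 with centring), neither past the test (limma adjusted p 0.904 and 0.931).

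**Figure D3:**
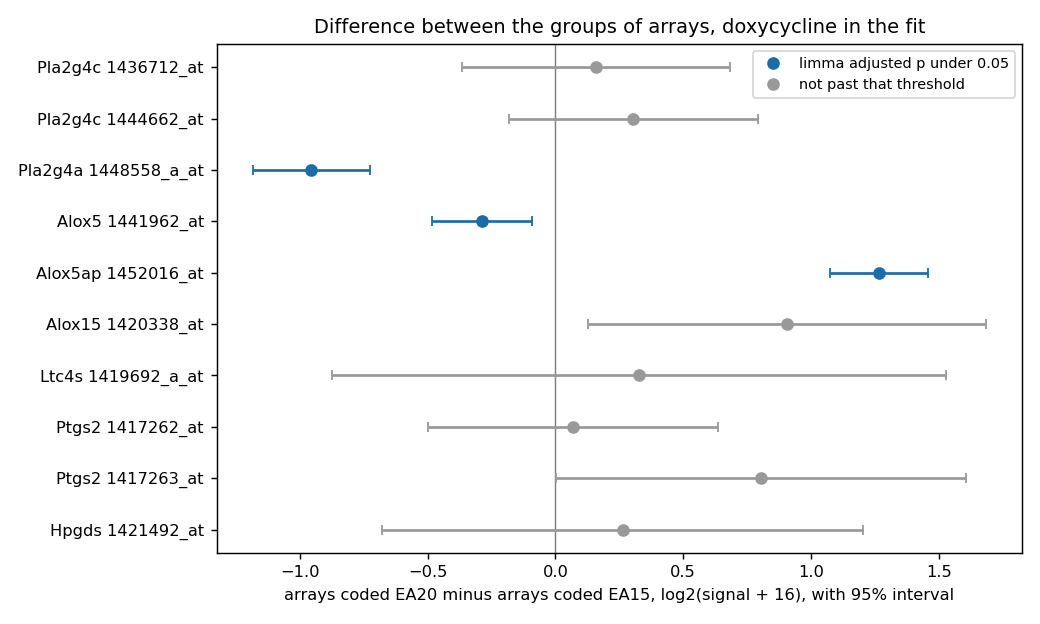
EA20 minus EA15 arrays in log2(signal + 16) with 95% intervals from limma (4 against 2 arrays, doxycycline in the fit), coloured where the adjusted p over all probe sets is under 0.05. Alox5ap lies above 0, Pla2g4a and Alox5 below, and the intervals of 7 probe sets are grey.

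Marker lists of eicosanoid-producing cells were read beside these values. Of the 5 measured of 6 eosinophil markers, 4 were positive with doxycycline (median log2 difference 0.54), 1 passed, 4 had an unadjusted p under 0.05 and none was at 0. The share of all genes at that unadjusted p was 11.2%. The marker lists were chosen with earlier results of these data known, so nothing is read from such shares. The lectin gene Siglecf read 206 (EA15), 1526 and 1407 (EA20) in Dox(+) arrays, against 105 (EA15), 810 and 680 (EA20) in Dox(-) arrays, and rose by 0.94 on the log2 scale (SE 0.10, limma adjusted p 0.019). That call was lost without the block, with a pseudocount of 64, without the trend and on leaving out any 1 array (limma adjusted p 1, 0.0658, 0.549 and 0.0503 to 0.182). Summed over the list, eosinophil markers read 547 (EA15), 23019 and 21993 (EA20) in Dox(+) arrays, against 331 (EA15), 16821 and 16524 (EA20) in Dox(-) arrays. Prg2, the granule major basic protein gene on that list, read 207 (EA15), 20880 and 19890 (EA20) in Dox(+) arrays, against 149 (EA15), 15570 and 15410 (EA20) in Dox(-) arrays. Most of the EA20 sums was therefore Prg2 alone. Ccr3 had the largest log2 difference on that list (2.14, SE 0.39) but did not pass (limma adjusted p 0.132). Il5ra, the interleukin-5 receptor gene on that list, was dim and went the other way (log2 difference -0.15, with 0.45 in EA20 and -1.34 in EA15). In the same limma test 0 of the 10 mast cell and basophil markers and 0 of the 6 monocyte and macrophage markers passed (3 and 1 at an unadjusted p under 0.05), and none was at 0. The mast cell list summed to 7007 to 17378 in Dox(+) and 8469 to 17216 in Dox(-) arrays. Most of that sum was Gata2, at 6557 to 15930 in Dox(+) and 8068 to 16090 in Dox(-) arrays, and 5 of the 10 genes were dim. The sum therefore says little about the other mast cell markers. Of the 10 genes, 6 were positive and 4 negative with doxycycline (median log2 difference 0.148). The 3 at an unadjusted p under 0.05 went both ways. Ms4a2 stood at 0.502 and Cpa3 at 1.05 (dim), but Mcpt8 at -1.005 (dim). The monocyte list summed to 1283 to 1727 in Dox(+) and 1404 to 1614 in Dox(-) arrays, with 2 genes positive and 4 negative. Of 5 measured neutrophil and 5 measured platelet markers 0 passed, with 1 of each at an unadjusted p under 0.05. On these lists 4 and 3 genes were positive (median log2 difference 0.06 and 0.15). The part of such marker genes in the differences of the eicosanoid genes was not tested.

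Other genes of the pathway showed no called doxycycline response. Of 102 genes on 6 lists, 93 had a probe set with 1 gene symbol, and each was taken at its brightest such probe set. Of these 0 rose and 0 fell in the blocked limma fit, against 0.143% of all genes called (32.7% between the array groups). The alternatives gave 0 as well. Those without the block, without the trend and without replicate 2 or 3 of either group called 0 of all probe sets. In these the 0 for the pathway genes was fixed. At an unadjusted p under 0.05 there were 12 (12.9%), against 11.2% of all genes. In simulated data, with changes put only into probe sets that were not dim, this fit recovered 38.8% of 2-fold and 11.9% of 1.5-fold changes. Changes of that size could thus be missed. Recovery for dim probe sets, which stand for 25 of the 93 genes, was not simulated. Of the 93, 58 were positive and 35 negative, with a median log2 difference of 0.05 against 0.004 for all genes. The groups were wholly apart in 9 (8 above, 1 below), or 9.68%, against 6.9% of all genes.

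Among the 22 other phospholipase A2 genes measured, 16 were positive (median 0.10) and 0 passed. Those with the smallest p were Pnpla8, a calcium-independent mitochondrial and peroxisomal phospholipase (log2 difference 0.22, SE 0.06, limma adjusted p 0.316), Pla2g4d, a further cytosolic form (0.996, SE 0.39, dim), and Pla2g2c, a secreted form (0.75, SE 0.34). Pla2g2c stood at 0.40 in EA20 and 1.45 in EA15, so without replicate 1 of either group its value is 0.405. Pla2g4d read 31.8 (EA15), 65.0 and 53.0 (EA20) in Dox(+) arrays, against 8.26 (EA15), 10.3 and 36.9 (EA20) in Dox(-) arrays. Of 21 genes for arachidonate uptake and release by other routes, 14 were positive (median 0.07). Elovl5, the fatty acid elongase, stood at 0.34 (SE 0.08, limma adjusted p 0.256), Mboat1 at 0.33 (SE 0.09) and Lpcat4 at 0.24 (SE 0.13), the last pair being lysophospholipid acyltransferases.

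Of 15 other lipoxygenase and leukotriene genes, 11 were positive (median 0.10). Lta4h, the hydrolase that makes leukotriene B, read 5211 (EA15), 5683 and 5456 (EA20) in Dox(+) arrays, against 5113 (EA15), 4049 and 3618 (EA20) in Dox(-) arrays. The groups did not overlap, but the log2 difference was 0.54 in EA20 and 0.03 in EA15 (0.37, SE 0.10, limma adjusted p 0.308). Mgst3, a microsomal glutathione transferase, stood at 0.20 (SE 0.07) and Ephx2, the soluble epoxide hydrolase, at 0.73 (SE 0.31), or 0.444 without Dox(-) replicate 2. Of 12 prostanoid genes 5 were positive (median -0.10). The prostaglandin E synthase gene Ptges stood at 0.97 (SE 0.40, limma adjusted p 0.4999), or 0.511 without Dox(-) replicate 2. Ptgr1, of prostaglandin and leukotriene B breakdown, was at 0.20 (SE 0.09), and the prostacyclin synthase gene Ptgis at -0.67 (SE 0.31, dim). Ptgr1 stood at 0.34 in EA20 and -0.07 in EA15.

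Of 15 eicosanoid receptor genes 7 were positive (median -0.01) and 9 were dim. Ltb4r1, the high-affinity leukotriene B receptor, read 293 (EA15), 1593 and 1181 (EA20) in Dox(+) arrays, against 278 (EA15), 925 and 785 (EA20) in Dox(-) arrays. Its log2 difference was 0.48 (SE 0.15, limma adjusted p 0.365), with 0.68 in EA20 and 0.07 in EA15, and 0.296 without Dox(+) replicate 2. Ptger1, a prostaglandin E receptor, stood at 0.56 (SE 0.22, dim) and the formyl peptide and lipoxin receptor gene Fpr2 at 0.93 (SE 0.45; 0.53 in EA20 and 1.73 in EA15). Of 8 regulators of cytosolic phospholipase A2, 5 were positive (median 0.03), with the annexin genes Anxa5 at 0.49 (SE 0.16, limma adjusted p 0.371) and Anxa2 at 0.26 (SE 0.09), and the p38 kinase gene Mapk14 at -0.11 (SE 0.09). Anxa5 stood at 0.18 in EA20 and 1.11 in EA15, and Mapk14 at 0.03 in EA20 and -0.38 in EA15. Without replicate 1 of either group Anxa5 is therefore at 0.176, and Mapk14 turns to 0.028.

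**Figure D4:**
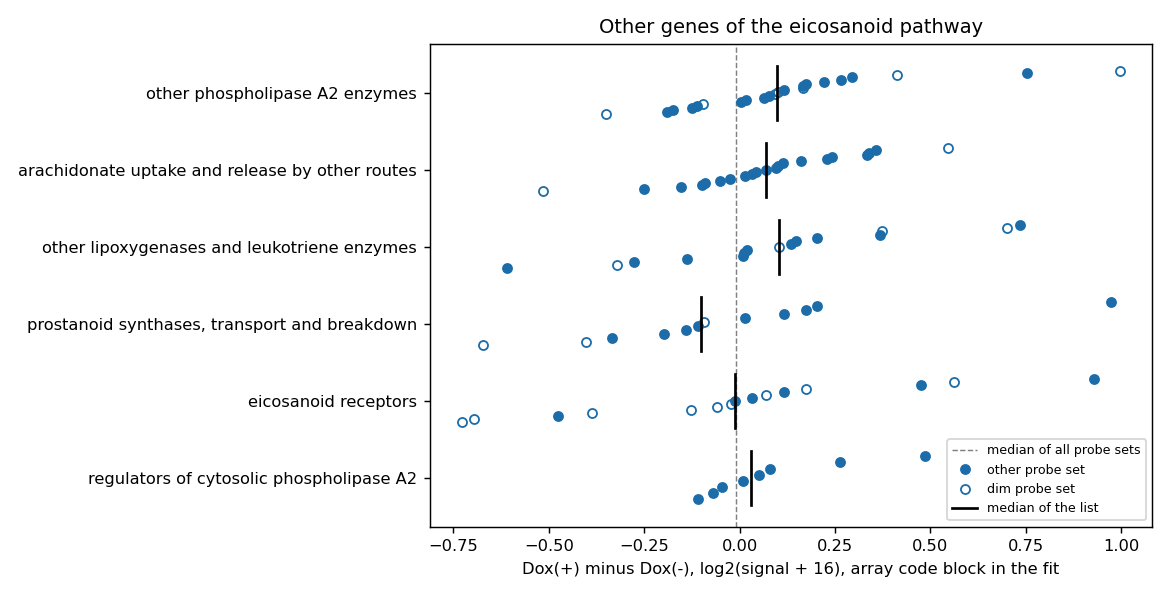
Dox(+) minus Dox(-) in log2(signal + 16) for the 93 other pathway genes, one point per gene, by list. Open points are dim probe sets, black bars the list medians (-0.10 to 0.10) and the dashed line the median of all probe sets (-0.01); none of the points passed the limma test.

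The 5 genes whose mean-centred profile over the 6 arrays was closest to that of Pla2g4c (1436712_at), by root mean square difference in log2(signal + 16), were Krtap3-1 (0.202), Ccr3 (0.253), Prima1 (0.323), Arhgef25 (0.357) and Pax5 (0.388). Krtap3-1 encodes a keratin-associated protein, Ccr3 the eotaxin receptor and Prima1 a membrane anchor of acetylcholinesterase, while Pax5 is the transcription factor gene contained in the fusion. Ccr3 read 37.1 (EA15), 137 and 81.7 (EA20) in Dox(+) arrays, against 4.11 (EA15), 6.23 and 4.97 (EA20) in Dox(-) arrays. Pax5 (1421765_at) read 119 (EA15), 94.5 and 94.2 (EA20) in Dox(+) arrays, against 15.6 (EA15), 3.76 and 20.3 (EA20) in Dox(-) arrays. These 5 genes averaged 22.6 (Prima1) to 76.6 (Arhgef25) over the arrays, and whether 1421765_at reads the transduced fusion is not known here. For Alox5ap the closest profiles were those of Tspo, a mitochondrial outer membrane protein gene (0.0411), Rit1, a small GTPase gene (0.0539), and Npl, of sialic acid breakdown (0.0564). For Pla2g4a they were Cyb5rl and Pcdhb18, both dim (means 24.4 and 12.4), and Syne4 (0.0630 to 0.0885). For the dim members they were B4galt5, Chst2 and Pam (Alox15), Pde7a, Krt78 and Akap6 (Ltc4s), and Ajm1, Tmem44 and Oaz3 (Ptgs2), at 0.0849 to 0.159. Alox5 and Hpgds varied too little over the arrays (SD up to 0.5) for this comparison. All these genes were picked for their likeness over the same 6 arrays, so the likeness is no separate result, and shared regulation was not tested.

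**Figure D5:**
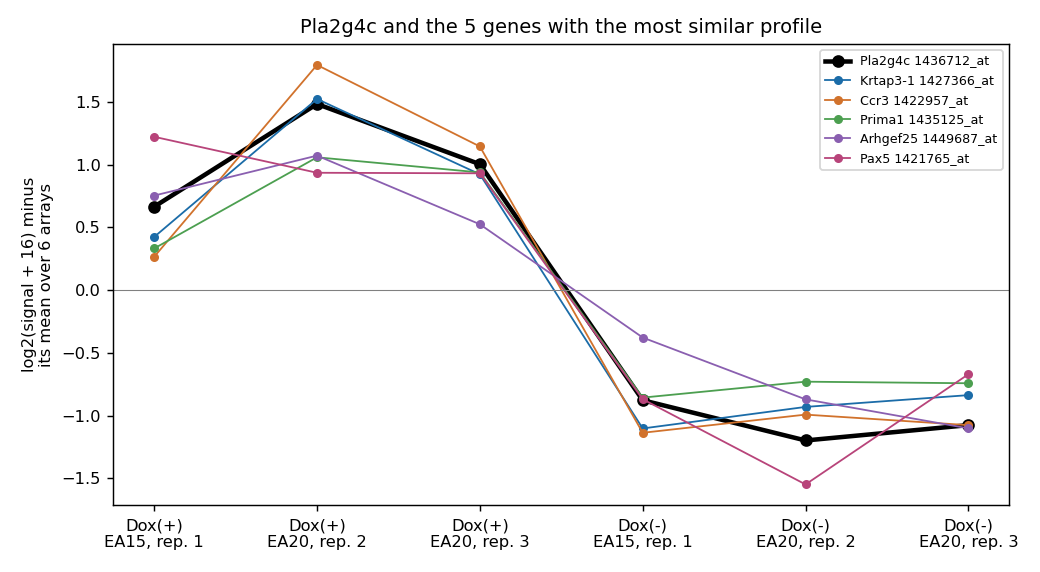
Mean-centred log2(signal + 16) of Pla2g4c (black) and of the 5 genes closest to it, in each of the 6 arrays, with Dox(+) arrays left and Dox(-) arrays right. All 6 lines are above 0 in the 3 Dox(+) arrays and below 0 in the 3 Dox(-) arrays, which follows from picking the genes for likeness to Pla2g4c.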

How the data were processed

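RNA of 6 Ba/F3 samples was measured on Affymetrix Mouse Genome 430 arrays. The authors deposited a linear intensity for each probe set. The submitters' processing notes name Affymetrix Expression Console, without algorithm or version. The values show that each array was scaled to a mean of 500 after trimming 2% at each end. Such scaling hides a change in total mRNA. The number of arrays limits the precision, and no detection calls were used.

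The members and gene lists were chosen with earlier results of these data known. Groups came from the source names; replicate numbers follow sample order and pair no arrays by themselves. Replicate 1 of both groups is the EA15 pair, which shares an array code and is joined by the block. The 64 control probe sets of 45101 were left out. Among the 45037 tested, 34945 had 1 gene symbol in the platform annotation, 932 several and 9160 none. Genes were matched only to probe sets with 1 symbol, so a gene annotated only beside others counts as not measured. The Entrez identifiers changed 0 symbols. Signals were transformed to log2(signal + 16), so folds understate changes of dim genes. limma 3.58.1 in R 4.3.3 (lmFit, eBayes with a mean-variance trend, two-sided) was run on all probe sets with doxycycline and the array code group as terms and Benjamini-Hochberg adjustment over all of them. Named were all member probe sets, for each pathway list the 3 genes with the smallest p, 5 profile neighbours of Pla2g4c, and 3 for each other member whose brightest probe set had an SD above 0.5 over the 6 arrays. Marker genes named singly were chosen after their values were seen, except those with the lowest levels. The fit was tested on simulated data for Dox(+) against Dox(-), with 45037 probe sets. Of these 200 were changed, all drawn from probe sets that were not dim. In this simulation 11.9%, 38.8% and 69.7% of the 1.5-, 2- and 4-fold changes were recovered, and 4 of 84 calls were false. The alternatives are given in the closing section.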

Additional observations from a re-analysis of the deposited data

How the results depend on the processing

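No paired analysis was possible because the labels give no replicate numbers, and the array codes tie only 1 Dox(+) array to 1 Dox(-) array, the EA15 pair, which the array code block takes up. The count of 39 probe sets with a doxycycline call was 0 without the array code block, 0 without the mean-variance trend, 62 with a pseudocount of 1, 7 with one of 64 and 110 without dim probe sets, and ran from 0 to 37 on leaving out 1 array. It was 34 without Dox(+) replicate 1 and 37 without Dox(-) replicate 1, but only 12 and 13 of these were among the 39. Of 56 probe sets called in the 4 EA20 arrays alone, 19 were among the 39. The count was 0 without Dox(+) replicate 2 or 3 or without Dox(-) replicate 2 or 3, and the cause was not tested. The 11176 probe sets that differed between array groups were 7392 without the trend and 6107 with 1 probe set per gene, where fewer were tested, and 7503 to 10402 on leaving out 1 array. The count of 2 member probe sets with groups apart, against 7.73% of all probe sets, was 8 in the 4 EA20 arrays alone, against 40.4%. It was 1 with 1 probe set per gene, against 6.9% of all genes, and 2 to 6 on leaving out 1 array. Fewer arrays are compared on leaving 1 out, and the share of all probe sets was not counted there. Nothing is read from these counts. The count of 3 member probe sets that differed between array groups stayed at 2 or 3. That of other pathway genes with a doxycycline call stayed at 0, which was fixed in the settings that called no probe set at all. The log2 difference of Pla2g4c 1436712_at was 1.69 to 2.38 over all settings, and that of 1444662_at 0.664 to 0.998. Those of Pla2g4a, Alox5 and Alox5ap stayed positive in every setting run. The number of arrays, and the low signal of the 5 dim probe sets, limit all values.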

Other observations

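Of the 93 other pathway genes, 37 differed between the array groups (20 higher and 17 lower in EA20, limma adjusted p under 0.05), or 39.8%, against 32.7% of all genes taken at their brightest probe set. Among the higher ones were the leukotriene B receptor gene Ltb4r1 (log2 difference 1.86), the annexin gene Anxa1 (1.83), S100a10, of the annexin complex (1.499), and Mgst3 (1.45). Among the lower ones was the secreted phospholipase gene Pla2g12a (-0.999). These genes were picked from the 37 after their values were seen.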
